A study of Homo sapiens with 8 samples.

Results

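BTLA, PLEK, THEMIS, BANK1, CD53 and CD7 are 6 genes of lymphocytes and other blood cells, looked up by symbol in an array study of human multiple myeloma cell lines. They are 6 of the 14812 genes with a named row in the deposited table, and each has 1 row. They were chosen by their intensities on these same arrays, which in earlier results placed most of them far higher in 1 line than in the others. Their levels by line are therefore given as a description without a test. The knockdown comparison within lines was not part of that choice, except that a low value of CD7 in KMS11 was already known.

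The study knocked down MMSET I, an isoform made by NSD2, a gene for a histone methyltransferase, and compared each knockdown with a control in the same line. The groups were 4 MMSET I knockdown arrays (labelled ShMI) and 4 control arrays, 1 of each from KMS11, KMS18, KMS34 and OPM2. The labels describe the 4 lines as t(4;14) myeloma, in controls as well as knockdowns, so no line without this translocation was measured. Both conditions were described with 1 lentiviral protocol (8 µg/mL polybrene, RNA 48 h after the medium change). The series text gives 72 h of shRNA and names KMS11 only, so that time is not stated for the other lines. What the control virus carried was not given in the sources used here. Each line has 1 culture per condition, so the 4 lines serve as the replicates of the knockdown and no value within a line has a replicate.

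Plasma cells, from which myeloma arises, are the antibody-secreting end stage of the B lineage, and during their differentiation they switch off much of the B-cell programme. BTLA is an inhibitory receptor of B and T cells that binds the TNF receptor family member HVEM. BANK1 is a scaffold that links the kinase LYN to calcium release downstream of the B-cell receptor, and THEMIS is a protein of T-cell receptor signalling needed for thymocyte selection. CD53 is a tetraspanin of leukocyte membranes, PLEK (pleckstrin) is a protein kinase C substrate of platelets and leukocytes, and CD7 is an immunoglobulin-family receptor of T and NK cells.

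The lines bore plasma cell markers. Of 15 such markers, 10 had a named row, and 9 of these lay on 8 arrays at or above an intensity of 46.7, the 25th percentile of all named genes, which is used here as a limit for dim rows. FCRL5 lay under it on 8 arrays. The syndecan gene SDC1 ranged from 869 to 1112 in knockdown arrays and from 844 to 1053 in control arrays. Markers of other blood cells were analysed only in part. At or above the limit on 8 arrays were 7 of 12 T-cell, 6 of 10 B-cell and 3 of 5 NK-cell markers. So were 5 of 11 myeloid and 4 of 5 megakaryocyte and platelet markers. The share of all genes doing so was not counted, so passing this low limit does not by itself set plasma cell markers apart. The summed intensity of 12 T-cell markers was 1575 to 3128 in knockdown and 1573 to 2903 in control arrays, that of 10 B-cell markers 591 to 1169 and 589 to 1129, and that of 5 NK-cell markers 328 to 749 and 328 to 767. It was 615 to 762 and 687 to 756 for 11 myeloid markers, and 338 to 401 and 326 to 397 for 5 megakaryocyte and platelet markers. NSD2, read by a row for the whole gene and not for the isoform, had 670, 549, 677 and 728 in knockdown arrays of KMS11, KMS18, KMS34 and OPM2, against 733, 680, 744 and 814 in control arrays. It was lower in 4 of 4 lines, by a mean of -0.18 log2 units, without passing the threshold (limma adjusted p = 0.472).

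BTLA, the inhibitory receptor, was high in KMS18 and dim in the other lines. Its intensity in KMS18 was 1549 in the knockdown and 1471 in the control array. In knockdown arrays of the other lines it was 30.5 in KMS11, 34.0 in KMS34 and 27.3 in OPM2, and in their control arrays 30.5, 28.9 and 30.3. All 6 of these arrays lay under the limit of 46.7, and such dim values are given no order. Taken against the limit, the mean of KMS18 stood at least 32.4-fold above the next line. The 2 arrays of KMS18 are knockdown and control of 1 line and not repeats of 1 condition.

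PLEK, the pleckstrin gene, was highest in the same line. It had 784 in the knockdown and 816 in the control array of KMS18. The other lines lay between 52.9 and 81.2, with 81.2 and 70.7 in knockdown and control arrays of KMS11, 57.2 and 52.9 in those of KMS34, and 54.9 and 55.5 in those of OPM2. None of these 6 arrays was under the limit, so the fold of KMS18 over KMS11, 10.6, needs no floor. KMS11 stood 1.37-fold above OPM2 without overlap, while OPM2 and KMS34 overlapped. Across the 8 arrays BTLA and PLEK correlated at 0.993 on the log2 scale, a description of 4 lines with 2 arrays each. A high value follows from their choice as genes far above in 1 line, here the same line.

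THEMIS, of T-cell receptor signalling, was highest in KMS11 and had a clear second line. KMS11 had 1542 in the knockdown and 1301 in the control array. OPM2 had 89.6 and 97.1, KMS34 had 38.8 and 42.8, and KMS18 had 30.5 and 31.7. The arrays of KMS11 and OPM2 did not overlap, and the 4 arrays of KMS34 and KMS18 were under the limit. KMS11 stood 15.2-fold above OPM2, and OPM2 itself at least 2.00-fold above KMS34. Without OPM2 the fold of KMS11, taken against the limit, was at least 30.4.

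BANK1, the B-cell scaffold gene, and CD53, the tetraspanin gene, were both highest in KMS34. BANK1 had 366 in the knockdown and 396 in the control array of KMS34, against 31.3 to 48.0 in the knockdown arrays of the other lines and 36.1 to 40.8 in their control arrays. CD53 had 395 in the knockdown and 342 in the control array of KMS34, against 39.7 to 44.2 and 33.1 to 49.0 in the other lines. For each gene 5 of the 6 other arrays lay under the limit, and the fold over the next line, KMS18, was at least 8.16 for BANK1 and at least 7.88 for CD53. Values under the limit are given no order. The genes correlated at 0.989 across the 8 arrays, and they lie on different chromosomes (4 for BANK1, 1 for CD53). Both were chosen for standing far above in 1 line, and they share that line, so a high correlation follows from the choice. It is no evidence of a link between them.

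**Figure D1:**
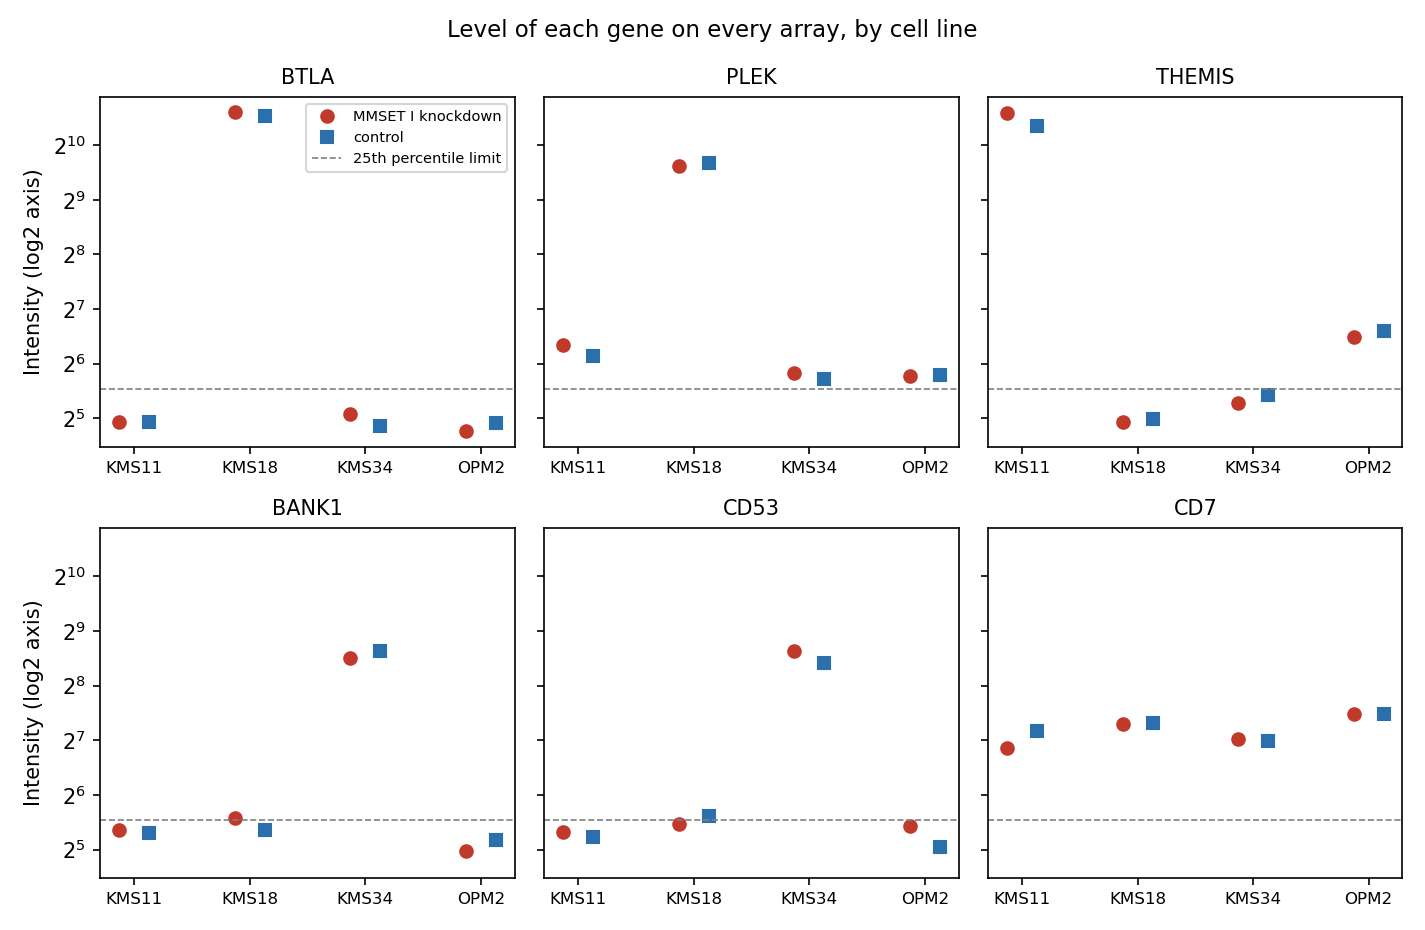
Intensity (log2 axis) of the 6 genes in the MMSET I knockdown array (circles) and the control array (squares) of each line, with the dim-row limit of 46.7 as a dashed line. BTLA and PLEK stand above in KMS18, THEMIS in KMS11, and BANK1 and CD53 in KMS34, while CD7 lies between 116 and 180 on 8 arrays.

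CD7, the T and NK cell receptor gene, went against the description of a gene restricted to 1 line. Its intensity was 178 in the knockdown and 180 in the control array of OPM2, 158 in both arrays of KMS18, 116 and 144 in those of KMS11, and 130 and 126 in those of KMS34. All 8 arrays lay above the limit. OPM2 stood 1.13-fold above KMS18, and KMS11 and KMS34 overlapped. The range of its line means was 0.478 log2 units, near the median range of all tested genes (0.516), against 3.86 for PLEK and, with lines under the limit taken at it, at least 2.98 for CD53, 3.03 for BANK1, 4.92 for THEMIS and 5.02 for BTLA.

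Of the 6 genes, 5 stood at least 4-fold above the next line, which is what they were picked for, and 49 of 11109 tested genes did so (0.441%). KMS11 was the highest line for 20 of the 49 (0.18% of the tested genes), KMS18 for 11 (0.099%), KMS34 for 11 (0.099%) and OPM2 for 7 (0.063%). OPM2 was thus the line with fewest such genes and with 0 of these 5. BTLA, BANK1 and CD53 reached the tested genes through the line where they are high, since their mean over the other lines is under the limit, whereas PLEK, THEMIS and CD7 passed without it.

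**Figure D2:**
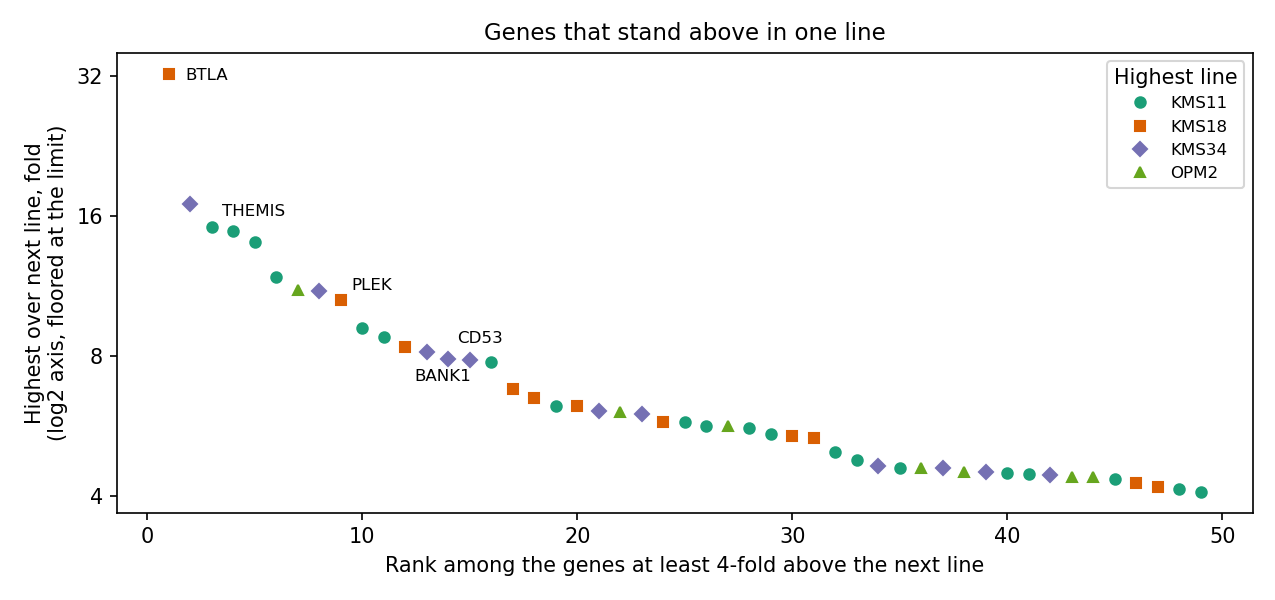
Fold of the highest line over the next line (log2 axis, next line floored at 46.7) for the 49 genes at or above 4-fold, ranked, with symbols for the highest line. BTLA lies at 32.4, and PLEK, THEMIS, BANK1 and CD53 between 7.88 and 15.2; the folds of BTLA, BANK1 and CD53 are lower bounds, so their ranks are not exact.

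Start-site windows were compared for the genes that share a line. RefSeq (GRCh38.p14) gave 9 windows of 300 bases, 250 before and 50 after a transcript start, for 5 of the genes. They were searched on both strands for GAGGAAGT, a motif of ETS factors such as PU.1, and for ATGCAAAT, the octamer bound by POU factors, both picked after the windows had been read. Each motif was found in 2 of the 9 windows. Because the motifs were picked this way, the shares over all windows given below are no test of enrichment. Windows of BANK1 and CD53 are shown because both genes were high in KMS34 and 1 of the 2 windows of each holds the first motif; the other window of BANK1 (chr4:101813592-101813891, plus strand) holds neither. In BANK1 (chr4:101790480-101790779, plus strand) and in the second start of CD53 (chr1:110872898-110873197, plus strand) it lies on the opposite strand, in capitals, starting 69 and 78 bases before the transcript start.
BANK1: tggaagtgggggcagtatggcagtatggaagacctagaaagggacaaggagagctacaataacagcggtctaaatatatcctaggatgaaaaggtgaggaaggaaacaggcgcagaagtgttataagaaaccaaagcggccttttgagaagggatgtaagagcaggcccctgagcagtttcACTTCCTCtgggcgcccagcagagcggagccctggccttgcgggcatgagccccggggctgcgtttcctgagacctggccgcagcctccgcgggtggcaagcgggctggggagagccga
CD53, second start: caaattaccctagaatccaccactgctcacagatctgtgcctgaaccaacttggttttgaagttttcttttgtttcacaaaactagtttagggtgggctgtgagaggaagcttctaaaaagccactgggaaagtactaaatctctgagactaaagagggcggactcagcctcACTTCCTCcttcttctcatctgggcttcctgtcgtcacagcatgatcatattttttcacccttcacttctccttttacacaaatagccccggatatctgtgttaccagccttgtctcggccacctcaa
Of 34943 windows of the same length, 906 hold this motif (2.59%). The octamer lay in the first start of CD53 (chr1:110870960-110871259, plus strand), 46 bases before it, and in 1 of 3 starts of THEMIS (chr6:127918546-127918845, minus strand), from base 22 after it, in capitals below.
CD53, first start: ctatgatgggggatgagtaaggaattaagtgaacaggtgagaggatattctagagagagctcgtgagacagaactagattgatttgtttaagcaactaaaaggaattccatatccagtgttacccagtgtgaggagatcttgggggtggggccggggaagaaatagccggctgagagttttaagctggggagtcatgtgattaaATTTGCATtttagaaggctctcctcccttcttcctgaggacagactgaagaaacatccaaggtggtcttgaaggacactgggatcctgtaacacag
THEMIS: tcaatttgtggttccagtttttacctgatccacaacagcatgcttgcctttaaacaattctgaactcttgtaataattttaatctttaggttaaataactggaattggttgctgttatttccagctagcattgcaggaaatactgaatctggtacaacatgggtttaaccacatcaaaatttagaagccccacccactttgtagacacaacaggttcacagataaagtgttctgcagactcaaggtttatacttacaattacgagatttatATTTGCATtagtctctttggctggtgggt
The octamer is held by 620 of the 34943 windows (1.77%). Neither run of letters was found in the windows of BTLA (chr3:112499423-112499722, minus strand) and PLEK (chr2:68365032-68365331, plus strand), the genes high in KMS18. BTLA is shown because it has the widest spread between lines.
BTLA: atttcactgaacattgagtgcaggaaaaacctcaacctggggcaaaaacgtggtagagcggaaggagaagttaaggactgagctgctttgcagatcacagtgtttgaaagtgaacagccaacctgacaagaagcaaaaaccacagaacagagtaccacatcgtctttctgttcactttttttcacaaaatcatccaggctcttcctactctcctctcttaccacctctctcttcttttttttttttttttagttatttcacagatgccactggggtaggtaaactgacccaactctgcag
The 9 windows held 0 to 13 CpG dinucleotides, against a median of 14 over all windows, and 27.7% to 57.7% G and C, against a median of 58.7%. These matches describe letters and not binding. For the factors themselves, the PU.1 gene SPI1 ranged from 74.0 to 92.7 in knockdown and from 86.1 to 96.9 in control arrays. Of other ETS family genes, SPIB was lowest in KMS34, at 114 in the knockdown and 112 in the control array. It was highest in KMS18, at 216 and 202. ETS1 had 105 and 112 in KMS34 and was highest in KMS11, at 453 and 417. The octamer factor gene POU2F2 ranged from 54.6 to 127 and from 62.7 to 125, highest in KMS34, and its coactivator POU2AF1 from 70.7 to 88.4 and from 70.7 to 82.3. These factor genes were named after their values were seen.

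The knockdown comparison asked whether these genes moved with the MMSET I knockdown, and 0 of the 6 passed limma's test (13 of 11109 genes did, 0.117%, of them 11 lower, 0.099%, and 2 higher, 0.018%). None had an unadjusted p under 0.05 either, against 934 of the tested genes (8.41%). The knockdown and control ranges overlapped for all 6. Each range spans the same 4 lines, which lie far apart for all but CD7, so nothing about the knockdown is drawn from this overlap. Compared within lines, 0 of the 6 had the same sign in 4 lines, against 17% of the tested genes. The mean difference, knockdown minus control, lay between -0.07 and 0.13 on the log2 scale.

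CD53 had the largest mean difference, at 0.13 (standard error 0.082, limma adjusted p = 0.703), with a 95% interval from -0.05 to 0.31. Outside KMS34, 5 of its 6 arrays lay under the limit, so the mean and interval rest in part on dim values. In KMS34, where CD53 is high, the knockdown array was 1.16-fold above the control (0.21 on the log2 scale). The value of 0.39 in OPM2 comes from intensities of 43.3 in the knockdown and 33.1 in the control array, both under the limit.

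PLEK had a mean difference of 0.06 (standard error 0.067, limma adjusted p = 0.841), with an interval from -0.09 to 0.21 and 2 of 4 lines higher. In its high line KMS18 the difference was -0.06. BTLA had a mean of 0.04 (standard error 0.072, limma adjusted p = 0.915), with an interval from -0.12 to 0.20. Its values in KMS11, KMS34 and OPM2 lay under the limit in both conditions, so the mean and interval rest in part on dim values. In KMS18 its knockdown array was 1.05-fold above the control, and 61.4% of tested genes had a larger absolute difference in that line. The receptor gene was high in KMS18 in both conditions.

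THEMIS had a mean of -0.02 (standard error 0.075, limma adjusted p = 0.968), with an interval from -0.18 to 0.15, with KMS34 and KMS18 under the limit. In KMS11 the knockdown array was 1.18-fold above the control (0.24 on the log2 scale), and 15.6% of tested genes had a larger absolute difference. BANK1 had a mean of -0.01 (standard error 0.077, limma adjusted p = 0.985), with an interval from -0.18 to 0.16, and 5 of its 6 arrays outside KMS34 were likewise under the limit. In KMS34 it was 0.922 of the control, a difference of -0.12. These values within a line have no test.

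CD7 had a mean of -0.07 (standard error 0.073, limma adjusted p = 0.824), with an interval from -0.23 to 0.09 and 3 of 4 lines lower. KMS11 gave -0.32, and the other lines gave 0.05 in KMS34, -0.01 in OPM2 and a smaller difference in KMS18. Without KMS11 the mean was 0.01. The 6 genes reached 1.5-fold in 0 lines, against shares of tested genes of 0.513% (KMS11), 0.126% (KMS18), 0.252% (KMS34) and 0.189% (OPM2). Exact two-sided permutation within lines gave p between 0.375 and 1 for the 6 genes, with 0.125 the smallest it can give. A missed threshold does not show that the knockdown left these genes as they were. The intervals give the sizes that remain possible under limma's spread, which also draws on the other tested genes. For a gene whose lines differ widely they may be too narrow.

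**Figure D3:**
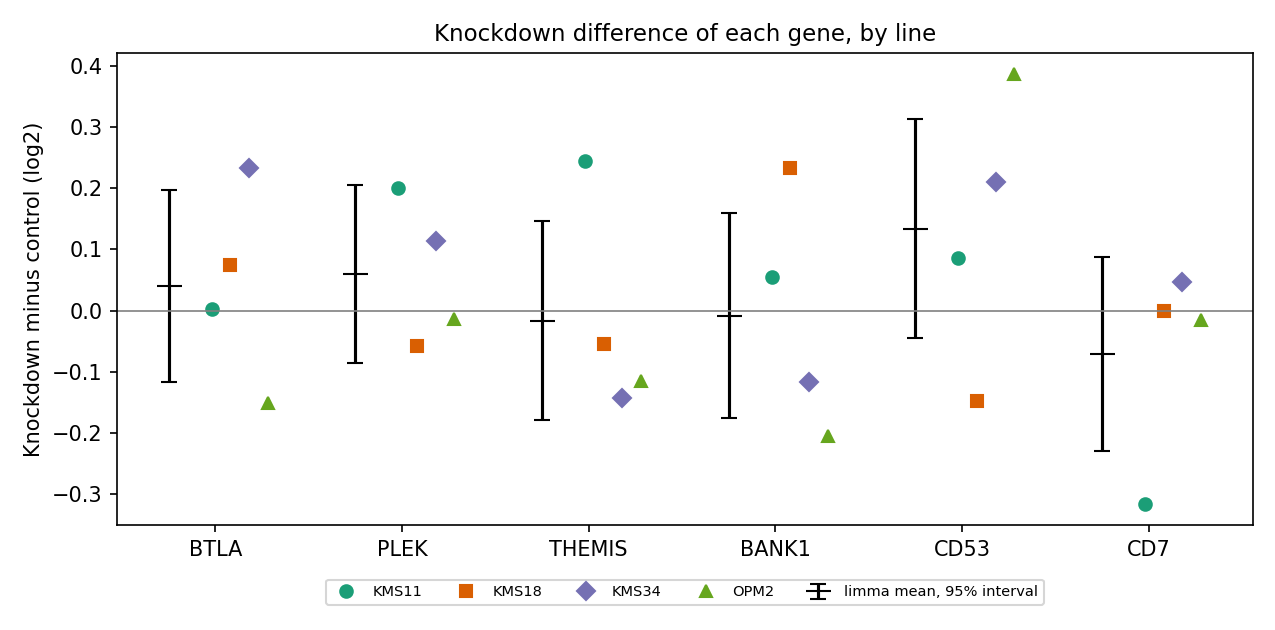
Knockdown minus control (log2) of each gene: symbols are the 4 lines, the bar is limma's mean with its 95% interval. All 6 intervals include 0, and CD7 in KMS11 lies at -0.32, apart from its other lines.

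Genes next to each member along the chromosome were compared in the line where the member is high. Only genes with a named row were used, and locus-type, microRNA and small RNA symbols were left out. Genes lying between may thus have been passed over, and a table neighbour need not be the adjacent gene. Of 36 table genes, 3 on either side of each member, 12 were highest in the line of their member. Among all tested genes, 23.1% (KMS34) to 27.8% (KMS11) were highest in a given line. Whether 12 of 36 exceeds such shares was not tested. The 12 include EMCN beside BANK1, at 24.8 to 26.5, under the limit, where values have no order. Of the 36 genes, 3 reached 2-fold over every other line in the line of their member. A fold here is the mean of that line over the highest other line or over the limit of 46.7, so dim genes fall under 1. Over all tested genes the share at least 2-fold above was 0.45% in KMS18 and 0.432% in OPM2.

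CD200 and GCSAM, a pair of these 3, lie beside BTLA on chromosome 3, both on the same side. CD200, the table gene next to BTLA, encodes an immunoglobulin-family glycoprotein that inhibits immune cells through its receptor. It had 703 in the knockdown and 590 in the control array of KMS18, against 44.2 to 165 in knockdown and 50.9 to 138 in control arrays of the other lines. The fold over KMS34 was 4.27 (F test between lines, limma adjusted p = 3.58e-10; 8412 of 11109 genes passed that test, 75.7%). GCSAM, the next table gene on that side, encodes a signalling protein of germinal-centre B cells. It had 452 and 474 in KMS18, against 41.2 to 140 in knockdown and 55.0 to 139 in control arrays of the other lines, 3.32-fold above KMS11 (limma adjusted p = 1.08e-09). Both genes were singled out here by their fold between lines, so these p-values are no independent evidence. The other table neighbours of BTLA did not share its pattern, and ATG3, an autophagy gene on its other side, stood at 1.05-fold.

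The third was TEX19, 2 steps from CD7 on chromosome 17, at 364 in the knockdown and 422 in the control array of OPM2 and 3.89-fold above KMS11. SECTM1, which lies between them and encodes a ligand of CD7, was 1.08-fold higher in KMS11 than in KMS18 and lowest in KMS34. For PLEK, THEMIS, BANK1 and CD53, 0 table neighbours reached 2-fold, and genes passed over were not seen. With 10 table genes on either side, chosen after the first result was seen, no further gene reached 2-fold: 2 of 20 did around BTLA, 1 of 20 around CD7 and 0 of 20 around each of the others. In the wider window the highest fold was 1.66 around CD53, 1.59 around THEMIS, 1.26 around PLEK and 1.01 around BANK1.

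**Figure D4:**
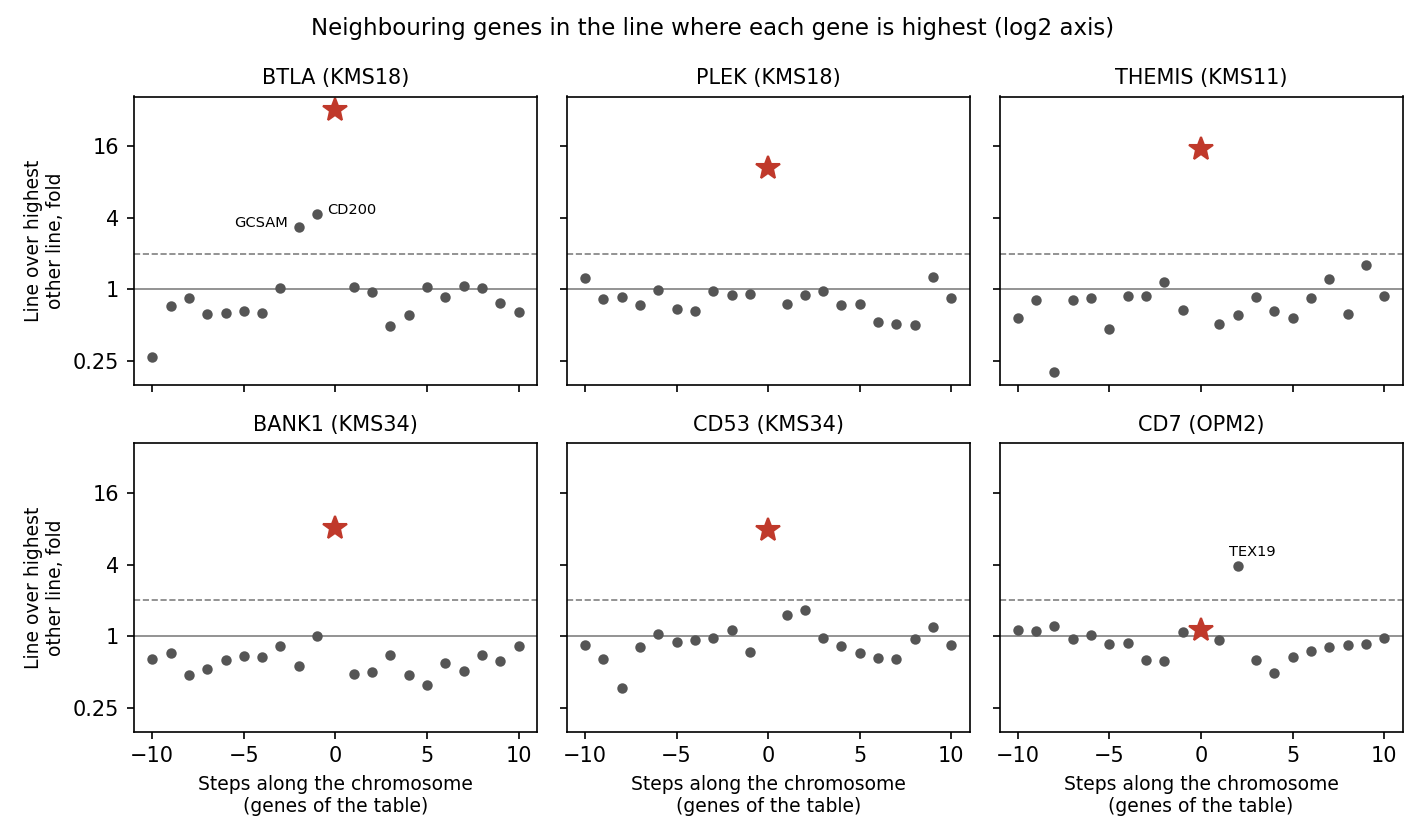
Fold (log2 axis, floored at 46.7) of the line named in each panel over the highest other line, for each gene (star at 0) and 10 table genes on either side in chromosome order. CD200 and GCSAM beside BTLA and TEX19 near CD7 lie above the dashed line at 2-fold, and no other neighbour does.

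The genes with the most similar pattern over the 8 arrays were taken from 2025 genes whose line means span at least 1 log2 unit. Arrays of 1 line share their cells, so these correlations describe 4 lines. For the members that stand far above in 1 line, any gene apart in that line correlates highly, also with a small fold. SIM1 below, for example, stood at least 1.80-fold above in KMS18. For BTLA they were ANO5 (Pearson's r = 0.997), SIM1 (0.995) and OCSTAMP (0.995), of which the membrane protein gene ANO5 stood 5.39-fold above in KMS18. For PLEK they were ERAP2 (0.996), NCALD (0.993) and DPP7 (0.991), and ERAP2, an aminopeptidase that trims peptides for HLA class I, stood 6.24-fold above in KMS18. For THEMIS they were SCCPDH (0.995), ASB16-AS1 (0.994) and MORC4 (0.991), with SCCPDH 4.15-fold above in KMS11.

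For BANK1 the list held NGLY1 (0.996), the unfolded protein response sensor gene ERN1 (0.995) and the annexin gene ANXA1 (0.994). CD53 had LETM1 (0.993), ERN1 (0.992) and GOLIM4 (0.991). ERN1 was in both lists and had 823 in the knockdown and 844 in the control array of KMS34, against 255 to 287 in knockdown and 228 to 269 in control arrays of the other lines. LETM1, a mitochondrial protein gene, stood 4.65-fold above in KMS34. For CD7 the most similar were PAX8-AS1 (0.963), GTSF1 (0.956) and TRIM72 (0.955), with OPM2 first and KMS18 second in each.

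Genes that act with the members or mark other cells were counted from lists drawn from general knowledge. Together the 13 lists gave 96 tested genes, of which 72 passed the F test between lines (75%, against 75.7% of all tested genes), 1 stood at least 4-fold above the next line and 0 passed for the knockdown. Line means spanned a median of 1.45 log2 units for T-cell receptor signalling genes, 1.17 for B-cell receptor signalling genes and 0.955 for tetraspanins, against 0.516 over all genes. The span was 0.187 for co-inhibitory receptors. Wide spans were not particular to lists related to the members: plasma cell markers had 1.08 and lymphoid transcription factors 0.888. B-cell markers had 0.543, myeloid markers 0.345, NK-cell markers 0.323, megakaryocyte and platelet markers 0.292 and T-cell markers 0.278. Most list genes named below were picked for the widest ranges between lines in their list, or after their values were seen. Their p-values in the F test rest on the values that picked them and are no independent evidence.

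T-cell receptor signalling genes passed the F test in 7 of 9 tested members (77.8%), near the 75.7% of all tested genes. Of the 9, 6 were highest in KMS11, the line of THEMIS, as were 27.8% of all tested genes. Among these, ZAP70 was level with KMS18 on average and did not pass (limma adjusted p = 0.221). LCP2, the adapter SLP-76 that acts downstream of the T-cell receptor, is the gene at 4-fold. It had 834 in the knockdown and 927 in the control array of KMS11, against 64.6 to 112 and 77.5 to 115 in the other lines, 7.77-fold above OPM2 (limma adjusted p = 2.01e-10). Its THEMIS relative THEMIS2 had 321 and 370 in KMS11 and 232 and 244 in KMS34, against 50.4 to 97.2 in knockdown and 72.2 to 85.7 in control arrays of the other lines. VAV1, an exchange factor of the same pathway, was highest in KMS34 and lowest in OPM2. The adapter gene LAT, at 766 in the knockdown and 795 in the control array, was also highest in KMS11, 2.28-fold above the next line. The kinase gene LCK, at 78.8 and 123 in KMS11, stood 1.34-fold above KMS18, which had 78.3 and 68.6. The lead of LCK in KMS11 thus rests on the control arrays, since the knockdown arrays of these lines were level. LAT and LCK were named after their values were seen.

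T-cell marker sums were also highest in KMS11, at a mean of 3016, against 2192 in KMS18, 2114 in OPM2 and 1574 in KMS34. Most of that sum was CD28, at 2481 in the knockdown and 2273 in the control array of KMS11. Without CD28, in a sum added after seeing the data, KMS11 had the lowest mean, at 639, with 673 in OPM2, 695 in KMS18 and 707 in KMS34. Of the 12 markers, 3 lay under the limit on 8 arrays, and of the 9 tested, 1 was highest in KMS11. The part of other cells in the THEMIS level was not tested.

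B-cell receptor signalling genes passed the F test in 6 of 8 tested members (75%), near the 75.7% of all tested genes. Of the 8, 1 was highest in KMS34 and 5 in KMS18, as were 23.8% of all tested genes in KMS18. Of the 5 in KMS18, CD22, BLK and SYK were within 1.08-fold of the next line, and BLK (limma adjusted p = 0.441) and SYK (0.364) did not pass. BTK, a kinase of this pathway, had 165 in the knockdown and 147 in the control array of KMS18, against 42.0 to 47.7 in knockdown and 40.1 to 43.0 in control arrays of the other lines, at least 3.33-fold (limma adjusted p = 8.28e-09). CR2, the complement receptor, was lowest in OPM2, at 38.2 and 35.8, against 128 to 229 in the other lines, and the adapter gene BLNK was highest in OPM2. LYN, the kinase that BANK1 binds, was named after its values were seen: it had 865 and 953 in KMS34, 1.94-fold above OPM2 (limma adjusted p = 9.50e-07).

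Tetraspanins, the family of CD53, passed the F test in 18 of 19 tested members (94.7%, against 75.7% of all tested genes). Of the 19, 8 were highest in KMS34, some by little over the next line, as were 23.1% of all tested genes. CD37, a tetraspanin of mature B cells, had 500 in the knockdown and 490 in the control array of KMS18, against 99.5 to 127 and 85.3 to 143 in the other lines (3.67-fold, limma adjusted p = 8.28e-09). TSPAN13 was highest in KMS34, at 193 and 221 and 2.20-fold above KMS11, and CD9 in KMS11, at 215 and 201. The B-cell marker sum was highest in KMS18, at 1149, against 797 in KMS34, 777 in KMS11 and 590 in OPM2. Without CD37, in a sum added after seeing the data, it was 654 in KMS18, against 692 in KMS34, 642 in KMS11 and 495 in OPM2. The part of other cells in the BTLA level was not tested. PAX5, which defines B-cell identity, had 88.3 and 91.6 in KMS18 and 59.0 to 82.7 in the other arrays.

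Co-inhibitory receptors and ligands, the class of BTLA, passed in 1 of 4 tested members (25%, against 75.7% of all tested genes). That gene was PDCD1LG2, a ligand of PD-1, highest in KMS11 at 109 and 79.4, whereas CD160, which shares the ligand HVEM with BTLA, lay between 52.5 and 65.3 over the 8 arrays. The PLEK relative PLEK2 lay between 45.9 and 58.3 and between 49.0 and 59.2 (limma adjusted p = 0.122), with no array of KMS18 apart from the rest. Lymphoid transcription factors passed in 17 of 19 tested members (89.5%, against the same 75.7%). ETS1 was highest in KMS11, at 453 and 417, against 80.7 to 269 in the other arrays, IKZF1 was lowest there, at 97.1 and 106, against 272 to 456, and LEF1 was lowest in KMS34, at 24.5 and 29.0, against 92.6 to 133.

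Markers of plasma cells passed in 9 of 9 tested members, with CD38 ranging from 83.2 and 50.6 in KMS11 to 365 and 416 in KMS18. DERL3 was highest in KMS11 and PIM2 in KMS34. B-cell markers passed in 6 of 9, T-cell markers in 4 of 9, NK-cell markers in 3 of 5, myeloid markers in 3 of 6 and megakaryocyte and platelet markers in 2 of 4. Over all tested genes 75.7% passed that test. NCAM1, an NK-cell marker also known from myeloma cells, was highest in OPM2, at 455 and 470, against 51.4 to 164 in the other arrays. Of the 96 list genes, 9 had an unadjusted p under 0.05 for the knockdown (9.38%, against 8.41% of all tested genes), and 0 passed limma's adjusted threshold.

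**Figure D5:**
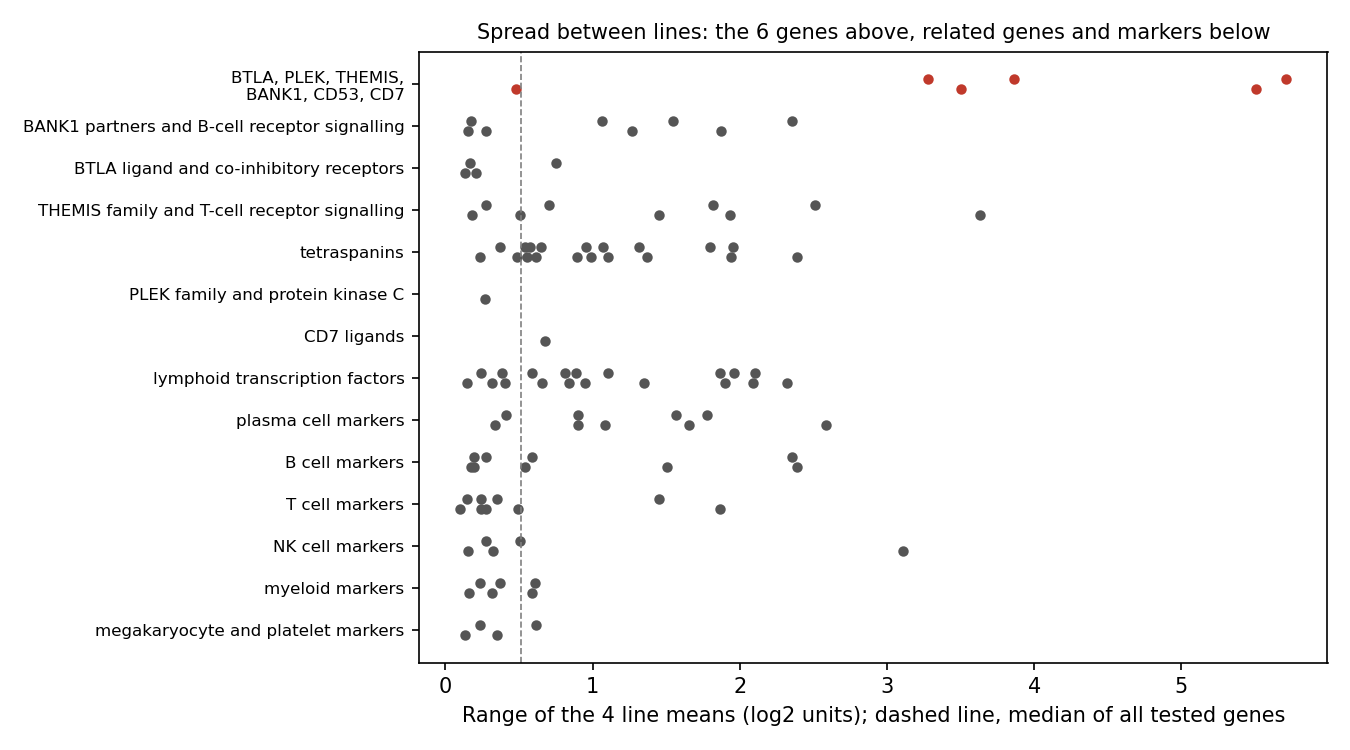
Range of the 4 line means (log2 units) for the 6 genes at the top and for each tested gene of the 13 lists below, with the median of all tested genes (0.516) as a dashed line. Values are plotted as measured, from 3.28 (CD53) to 5.71 (BTLA) for the 5 members other than CD7; with dim lines taken at the limit, CD53 is at least 2.98 and BTLA at least 5.02. LCP2, at 3.64, has the widest range of the list genes.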

How the data were processed

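RNA of 8 cultures was hybridised to Affymetrix Human Gene 2.0 ST arrays and analysed by the authors with GeneSpring, per the labels. The deposited values are linear intensities, and their normalization is not given in the sources used here. The 8 arrays had medians between 49.3 and 53.5. Of 44629 rows, 15835 had 1 gene symbol, 0 had several and 28794 had none in the platform annotation. The brightest row stood for each of 14812 genes.

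Intensities were taken to log2, and 11109 genes with a mean at or above the 25th percentile (log2 5.54, intensity 46.7) were tested with limma 3.58.1 in R 4.3.3, with the cell line as a block and Benjamini-Hochberg adjustment at 0.05. The block comes from the line named in the labels. Deviations from each gene's mean over the 4 lines of a condition correlated at 0.925 to 0.932 between arrays of 1 line. Between different lines they correlated at -0.135 or less. Taking out that mean pushes values between different lines below 0, so the contrast is no test of the pairing. The fit was tested on simulated data. A fold above the next line took that line at 46.7 or higher. The number of arrays limits the precision. For the knockdown, limma's p-values and intervals rest on a combined spread: the gene's own over the 4 lines, and that typical of all tested genes. A gene whose lines differ more than is typical thus gets a narrower interval than its own values would give. The F test between lines takes the 2 arrays of a line, knockdown and control, as its repeats. Its p-values set differences between lines against the spread within these pairs, combined with other genes in the same way, with 1 culture per line and condition.

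The 6 genes, the gene lists and the tests were chosen with earlier results of these data known. Named beside them are the 3 genes most correlated with each, their chromosomal neighbours, NSD2 and up to 3 genes per list with the widest range between lines. SDC1, FCRL5, PAX5, LAT, LCK, ZAP70, CD22, BLK, SYK, LYN, SPI1, SPIB, POU2F2 and POU2AF1 were named besides, after their values were seen. Alternatives covered normalization, filter, floor, row choice, block, variance model and each line left out. Genes without a named row were not analysed here.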

Additional observations from a re-analysis of the deposited data

Results flagged for a closer look

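For 8 genes outside the 6 members, levels over the 4 lines were examined for a value far from the other 3, and for all 14 genes so were the knockdown differences, by Dixon's test at its 95% critical value. The levels of the 6 members were left out, because they chose the genes. Chance singles out about 1 in 20 sets that were not chosen by their values. Here 7 of 30 were singled out: 6 of 16 sets of levels and 1 of 14 sets of differences. LCP2, CD37, BTK and NCAM1 were named for wide ranges between lines, and TEX19, CD200 and GCSAM for reaching 2-fold in the line of a member. Their levels are therefore no independent evidence, and the chance rate does not hold for them. The knockdown and control levels of a gene come from the same lines and are not separate sets.

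OPM2 stood apart for TEX19, at 363.5 in knockdown and 421.6 in control arrays. KMS18 stood apart for BTK, at 164.7 in knockdown and 146.8 in control arrays, and for CD37 in knockdown arrays, at 499.8. KMS11 stood apart for LCP2 in control arrays, at 927.4.

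The single knockdown difference was that of CD7 in KMS11, at -0.3162 on the log2 scale. It comes from 1 knockdown and 1 control array, and was known from earlier results.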

How the results depend on the processing

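The 6 genes gave 81 knockdown differences under the alternatives, of which 0 passed the threshold (smallest limma adjusted p = 0.597). Leaving out each line in turn gave ranges of -0.0890 to 0.0575 for BANK1, -0.0247 to 0.103 for BTLA, -0.104 to 0.0250 for THEMIS and -0.110 to 0.0102 for CD7, which include both signs. They were 0.0495 to 0.228 for CD53 and 0.0136 to 0.0997 for PLEK. Quantile normalization turned BANK1 to 0.0065. BTLA, BANK1 and CD53 are under a filter at the 50th percentile and have no value there.

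The 13 genes called for the knockdown became 4 without the filter, 3 with the line as a random block, 1 over all rows, 29 with a trended, robust variance and 1 to 2 with a line left out. Without the replicate block 0 were called by limma, with 18 at an unadjusted p under 0.05. The pairing by line changed no call of the 6 genes. The 49 genes at least 4-fold above the next line became 61 to 81 with a line left out (78 without KMS11, 81 without KMS34). The causes were not tested.

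With the floor at the 50th percentile the folds were 17.7 for BTLA, 9.37 for PLEK, 4.46 for BANK1 and 4.30 for CD53, and without a floor 48.2 for BTLA. PLEK stood at 14.5 without KMS11, THEMIS at 30.4 without OPM2 and CD7 at 1.38 without KMS18. With 1 array per line and condition, no difference within a line has an error, and values under 46.7 have no order.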
